A study of Mus musculus with 8 samples.

Results

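Neat1 and Malat1 are neighbouring genes for long noncoding RNAs that stay in the nucleus, and Mir122 encodes the most characteristic microRNA of hepatocytes. These 3 genes, of 49550 on the autosomes and X of the gene table used here, were chosen by name. Their RNA polymerase II (Pol II) ChIA-PET signal was taken over the annotated span of each gene and 20 kb either side. ChIA-PET enriches crosslinked chromatin with an antibody, here 8WG16, which recognises the repeated C-terminal domain of Pol II, and joins DNA ends that lie in one complex. Each joined molecule is read as a paired-end tag (PET) with an end at both of its positions, so the number of ends over a gene follows Pol II occupancy as well as contacts.

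The livers came from wild type C57BL/6 mice of 3 to 6 months, kept in 12 hours of light and 12 hours of dark with free access to food. Of 8 libraries, 4 were taken midway through the light phase (ZT06) and 4 midway through the dark phase (ZT18), and chromatin of 3 to 7 livers was pooled for each immunoprecipitation. Experiment 1 had 4 libraries and experiment 3 had 2, both crosslinked with 1.5 mM EGS, a protein crosslinker, and 1% formaldehyde. Experiment 2 had 2 libraries, crosslinked with 1% formaldehyde alone. The deposited table names the experiment of a PET but no library or time point, so day and night were not compared, and each value below belongs to 1 pool per experiment with no replicate spread. Crosslinking and experiment cannot be told apart. Intervals are 95% intervals that take the PET as the unit and cover counting error only.

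Malat1 RNA gathers in nuclear speckles, bodies rich in splicing factors, and its 3′ end is cut by RNase P, which releases the small mascRNA. Neat1 is transcribed as a short and a long RNA from a shared start, and the long RNA is the scaffold of paraspeckles. The Mir122 hairpin is cut by Drosha from a longer primary transcript made in hepatocytes, where the microRNA acts on genes of lipid and iron metabolism. All 3 genes give abundant RNAs in liver.

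In GRCm38 coordinates, Malat1 spans chr19:5795690-5802672, which is 6983 bp. Neat1 spans chr19:5824708-5845480, which is 20773 bp. Both lie on the minus strand, for Neat1 by general knowledge of the gene, so transcription runs towards lower coordinates, and 22035 bp separate the start of Malat1 from the 3′ end of Neat1. The small gene Mascrna lies inside Malat1 and shares its ends.

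The promoter of Malat1 is shown because the densest 1 kb window of the gene covers it. It holds 26, 8 and 10 PET ends in experiments 1, 2 and 3. The RefSeq sequence (GRCm38.p6) is chr19:5802623-5802922 read on the minus strand, with the 50 transcribed bases in capitals:
Malat1 promoter: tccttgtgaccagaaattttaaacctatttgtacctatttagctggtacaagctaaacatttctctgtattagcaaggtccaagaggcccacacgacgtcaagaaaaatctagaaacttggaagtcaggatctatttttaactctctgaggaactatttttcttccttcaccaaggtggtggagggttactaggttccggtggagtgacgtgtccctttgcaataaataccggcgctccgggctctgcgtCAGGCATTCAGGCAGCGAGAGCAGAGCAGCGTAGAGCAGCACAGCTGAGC

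Searched on both strands, this window had 3 matches to TGACG, the core letters of the cyclic AMP response element, beginning 154, 45 and 3 bases before the start. Of 32851 promoters of the same length, 20.8% hold at least 1 such match. The window had no match to the E-box CACGTG (7.15% of promoters), the D-box TTATGTAA (0.938%), AGGTCA (16.3%), TATAAA (13.6%) or CCAAT (37.4%). A match to letters is only a description of the sequence.

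The depth was 474478, 1438866 and 840210 PETs in experiments 1, 2 and 3, with a mean of 0.369, 1.12 and 0.652 ends per kb over the autosomes and X. Densities are given relative to that mean of the same experiment, over a gene with 2.5 kb either side. The median gene was at 0.945, 1.06 and 1.14. The liver label was checked against cell type markers. All 6 hepatocyte markers, with medians of 64.9, 8.20 and 12.0, were at 2 or more in every experiment. Of all protein-coding genes 4.59% were. None of the 21 markers of Kupffer cells, endothelium, stellate cells, bile duct, lymphocytes or other tissues was, and their highest single value was 2.53, for Cd5l in experiment 1. At a share of 4.59%, none of 21 is no result about those markers.

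All 3 genes carried far more ends than the mean in every experiment. Malat1 held 150, 79 and 67 ends, which is a relative density of 33.9 (27.8 to 41.1), 5.89 (4.53 to 7.54) and 8.58 (6.47 to 11.2). Neat1 held 1089, 405 and 375 ends, at 114.6 (106 to 123), 14.0 (12.5 to 15.7) and 22.3 (19.8 to 25.1). Mir122 held 278, 96 and 129 ends, at 148.8 (128 to 172), 16.9 (13.4 to 21.1) and 39.1 (31.6 to 47.8). Each of the 3 was thus at 2 or more in every experiment, which 3.33% of all genes were, 2.7% of lncRNA genes and 7.41% of miRNA genes.

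With 2.5 kb either side the order was Mir122, Neat1, Malat1 in every experiment. With 20 kb either side Neat1 was above Mir122 in each, at 51.7 against 35.7, 6.57 against 5.44 and 11.3 against 8.66. Over the spans alone it was above Mir122 in experiment 2, at 16.2 against 13.5, where the hairpin held 1 end. The ratios that follow are with 2.5 kb. Neat1 exceeded Malat1 by 3.38 times (2.75 to 4.18), 2.38 times (1.81 to 3.18) and 2.60 times (1.95 to 3.53) in experiments 1, 2 and 3. Mir122 exceeded Neat1 by 1.30 times (1.10 to 1.53) in experiment 1 and 1.75 times (1.37 to 2.22) in experiment 3. In experiment 2 their ratio was 1.21 (0.928 to 1.55), an interval that includes 1, so these neighbours in the order did not differ there beyond counting error.

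**Figure D1:**
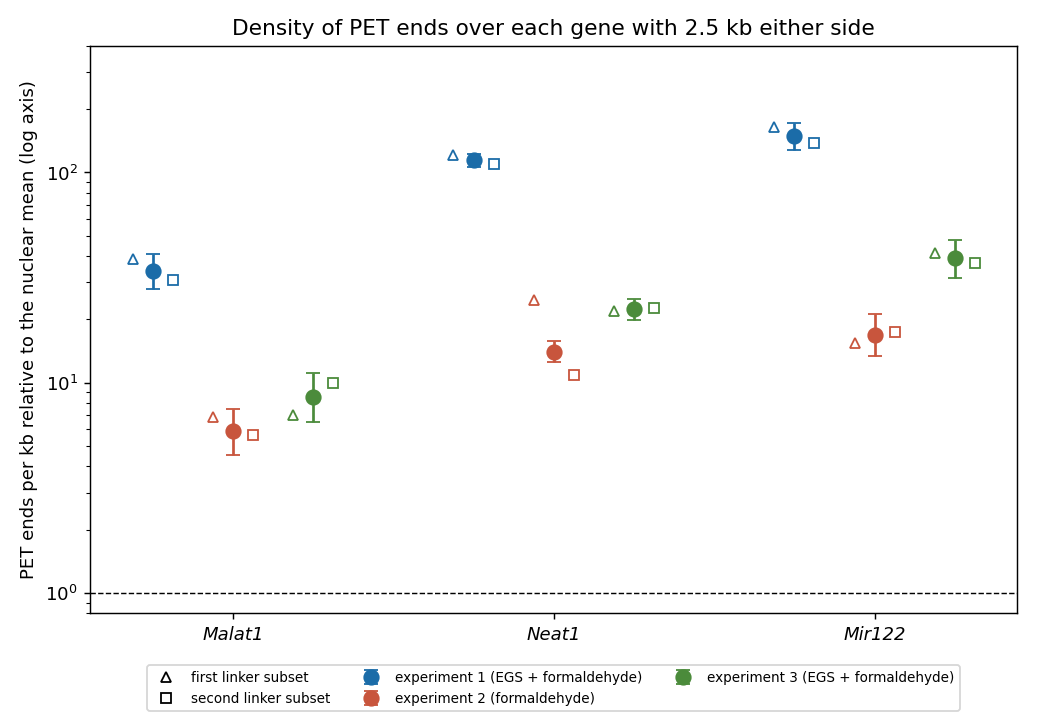
Relative density of PET ends (log axis, nuclear mean at the dashed line) over Malat1, Neat1 and Mir122 with 2.5 kb either side. Filled points are all PETs of an experiment with 95% counting intervals, and open triangles and squares are the PETs with linker ATGT and linker TAAG. Experiment 1 is highest for each gene, with 33.9, 114.6 and 148.8.

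Experiment 1 stood above the others for each gene. Its density exceeded that of experiment 2 by 5.76 times for Malat1, 8.16 times for Neat1 and 8.79 times for Mir122. Against experiment 3, which used the same crosslinkers, it was 3.96, 5.13 and 3.81 times as high. Experiment 3 exceeded experiment 2 by 1.59 times (1.35 to 1.87) for Neat1 and 2.31 times (1.69 to 3.16) for Mir122, while for Malat1 the ratio was 1.46 (0.997 to 2.12). The hepatocyte markers also had their highest median in experiment 1, so this order was shared with other densely occupied liver genes.

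Set against every gene of the table, Mir122 ranked 2, 8 and 3 in experiments 1, 2 and 3 and Neat1 ranked 3, 12 and 10. These ranks count the Mir122 locus more than once, since Mir122b shares its ends and, at 149.0, is the gene above Mir122 in experiment 1. Malat1 ranked 64, 98 and 152. In experiment 1, Neat1 was above all 21627 protein-coding genes, and in experiments 2 and 3 it was below 4 of them. Among 12697 lncRNA genes Neat1 ranked 1, 2 and 2, with the uncharacterised Gm33838 on chromosome 9 above it in experiments 2 and 3, at 48.4 and 60.3. Malat1 ranked 7, 15 and 25 among the lncRNA genes. Ranks compare ends per kb, and a short gene such as Mir122 is measured mostly through its 2.5 kb margins.

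The rows of each experiment carry 1 of 2 linker sequences, ATGT or TAAG, and no label says what they stand for. In experiment 1 the Neat1 densities in the linker subsets were 121.3 and 109.9, and in experiment 3 they were 22.0 and 22.6. In experiment 2 they were 24.8 (20.4 to 29.9) with ATGT and 10.8 (9.37 to 12.5) with TAAG, which do not overlap. That ratio of 2.29 was reached or exceeded by 20.8% of 448 other genes that were at 2 or more in every experiment and had at least 40 ends in experiment 2, whose median ratio was 1.73. Mir122 had 15.4 and 17.4 there, a ratio of 0.886 that 98.0% of such genes reached or exceeded. In the same experiment the share of all PETs with ends within 8 kb was 10.9% with ATGT and 4.84% with TAAG. Without those PETs, Neat1 stood at 14.3 (11.4 to 17.7) and 8.74 (7.53 to 10.1). The part of the linkers in the differences between experiments was not tested.

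Within Malat1 the densest window lay at the start. Of 48 windows of 1 kb over the gene and its flanks, 3 adjoining ones (chr19:5801000-5803999) were at 5 or more times the mean in every experiment, against 0.186% of all 2570649 windows. The densest, chr19:5802000-5802999, covers the promoter printed above and held 45, 22 and 18 ends, or 122, 19.7 and 27.6 times the mean. Upstream the signal stopped: the window from 5804000 held 1, 2 and 0 ends. The span was then divided into 4 equal parts from the start. The density in the first was 52.8, 13.8 and 12.3 in experiments 1, 2 and 3, and in the one after it 20.2, 5.63 and 3.52. The next had 31.05, 2.05 and 11.4. The last, which holds the mascRNA, had 51.3 (32.2 to 77.5) in experiment 1. It had 3.58 (1.44 to 7.39) in experiment 2 and 9.67 (4.83 to 17.3) in experiment 3. In experiments 1 and 3 the intervals of the first and last parts overlapped, while in experiment 2 they did not overlap.

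**Figure D2:**
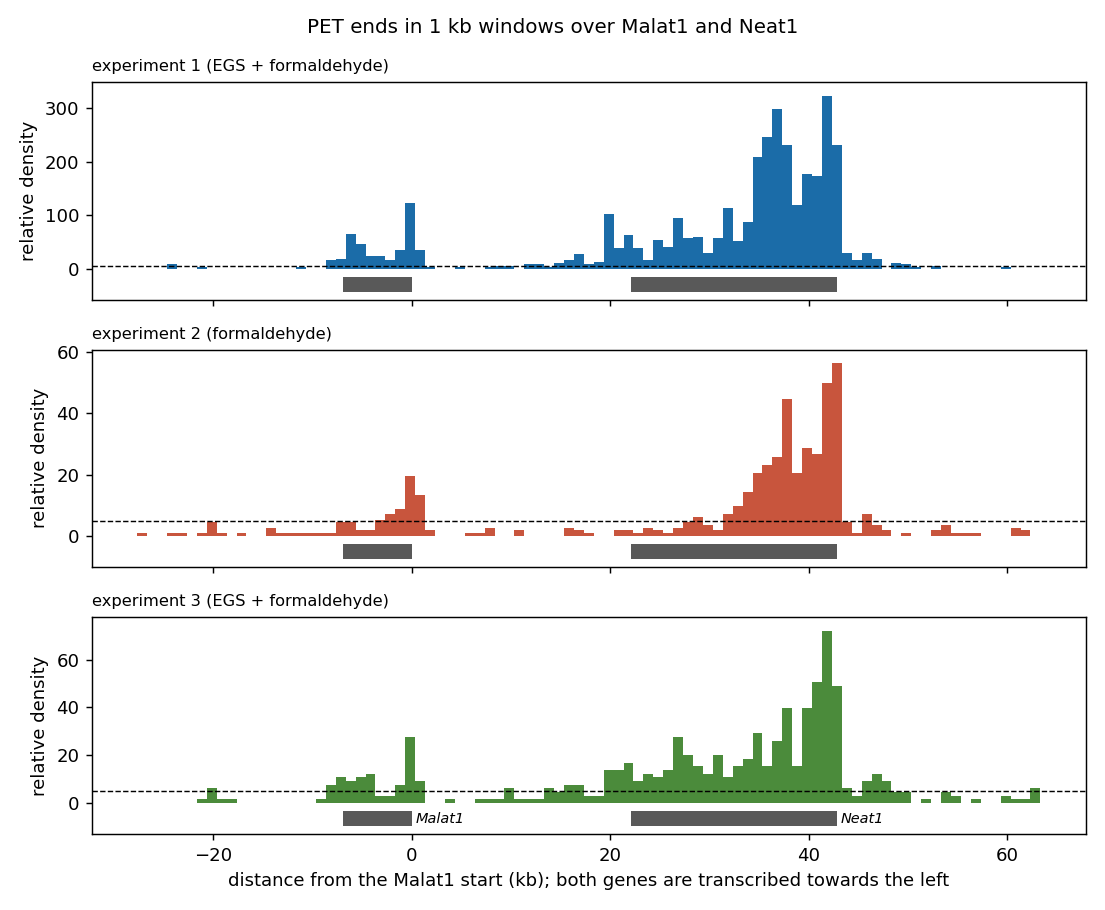
Relative density of PET ends in 1 kb windows over Malat1 and Neat1, by distance in kb from the Malat1 start, in 3 panels with their own linear axes. Grey bars are the genes and the dashed line is 5 times the mean. Both genes are highest at their starts, on the right of each bar. Neat1 has a further maximum inside the gene, and its signal falls towards its 3′ end most in experiment 2.

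In Neat1 the dense stretch was longer. Of 62 windows over the gene and its flanks, 14 were at 5 or more times the mean in every experiment. Of these, 12 formed an unbroken run over chr19:5834000-5845999 with 1449 ends, the third longest of 3823 such runs in the genome. The longer runs overlap Sfi1 on chromosome 11, and the run with the most ends, 8525 on chromosome 2, overlaps no gene. Runs were not checked for repeated sequence, so these are ranks of end counts only. The densest Neat1 window, chr19:5844000-5844999 just inside the start, held 119, 56 and 47 ends, or 322.6, 50.0 and 72.1 times the mean. The next window towards the upstream side held 85, 63 and 32 ends, and the one after it only 11, 5 and 4. The edge at the start was thus sharp in all 3 experiments.

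From the start to the 3′ end the density of Neat1 by 4 equal parts fell in each experiment, but to different depths. By 1 kb windows the fall was not steady. The window from 5841000 held 44, 23 and 10 ends in experiments 1, 2 and 3. The next towards the 3′ end, from 5840000, held 85, 50 and 26. In experiment 1 the window from 5839000 held 110 ends, against 119 in the densest. By the 4 parts the density was 218.7, 186.9, 61.6 and 48.6 in experiment 1. It was 38.4, 20.1, 4.65 and 1.72 in experiment 2, and 46.1, 23.4, 15.4 and 14.8 in experiment 3. The intervals of the last 2 parts overlapped in each experiment, only narrowly in experiment 2, so the last step down is not clear. The last part in experiment 2, with 10 ends and an interval of 0.825 to 3.16, was close to the nuclear mean, while experiments 1 and 3 were still well above it. The same held past the 3′ end. Over the first 2.5 kb downstream the density was 77.0 (56.4 to 103), 1.43 (0.390 to 3.66) and 15.4 (9.40 to 23.7). From 2.5 to 10 kb downstream it was 11.6 (7.44 to 17.2), 0.715 (0.215 to 1.74) and 4.71 (2.80 to 7.42). A separate local maximum lay downstream in experiment 1, mostly within the first 2.5 kb. The window chr19:5822000-5822999 held 38 ends there, against 0 in experiment 2 and 9 in experiment 3.

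**Figure D3:**
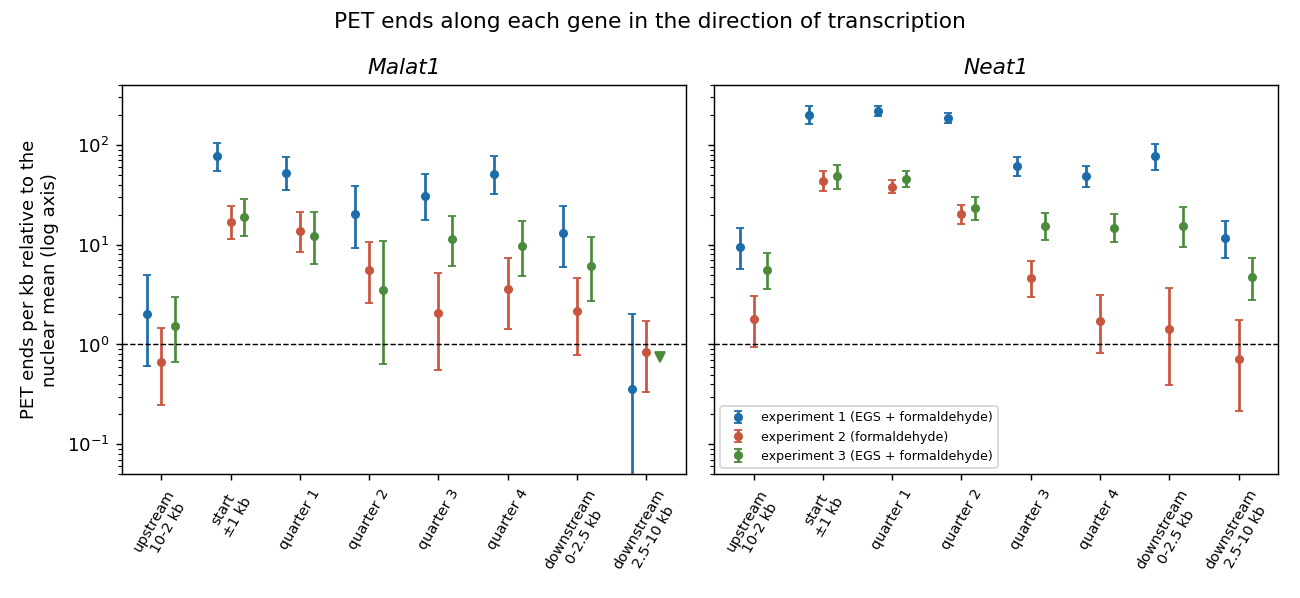
Relative density of PET ends (log axis) in zones along Malat1 and Neat1 in the direction of transcription, with 95% counting intervals. The triangle marks the upper limit of a zone with 0 ends. For Neat1, experiment 2 reaches 1.72 in the last of 4 equal parts, where experiments 1 and 3 are at 48.6 and 14.8.

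As a share of the PETs over the span, the part of Neat1 beyond its midpoint towards the 3′ end held 22.1% (19.2 to 25.2), 11.3% (8.06 to 15.3) and 31.0% (25.7 to 36.7) in experiments 1, 2 and 3. For Malat1 the shares were 49.4% (38.1 to 60.7), 25.6% (13.5 to 41.2) and 57.9% (40.8 to 73.7). Experiment 2 had the lowest share in both genes. Experiment 2 was also lowest in 37.4% of 431 protein-coding genes of 5 to 50 kb that were at 2 or more in every experiment, and in 48.8% of the 82 with at least 40 ends in each. The medians of the 431 genes were 26.2%, 30% and 33.3% of ends, so experiment 2 was not lowest there, and those of the 82 genes were 27.3%, 24.4% and 36.5%. This comparison with other genes was chosen after the values of Neat1 and Malat1 had been seen.

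The Mir122 hairpin is chr18:65248861-65248926, which is 66 bp, and the annotated gene Mir122b lies within it and shares its ends. Over Mir122, 9 adjoining windows (chr18:65244000-65252999) of 41 were at 5 or more times the mean in every experiment and held 905 ends. The block had 2 maxima on either side of the hairpin. One was its first window, from 65244000, with 113, 45 and 26 ends, or 306.4, 40.2 and 39.9 times the mean. The window before it held 6, 2 and 2, so the upstream edge was again sharp. The other maximum was the window from 65249000, just after the hairpin, with 98, 31 and 46 ends, or 265.7, 27.7 and 70.6 times the mean. The hairpin's own window lay between them with 40, 7 and 18 ends. The first maximum was the higher in experiments 1 and 2, and the second in experiment 3.

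**Figure D4:**
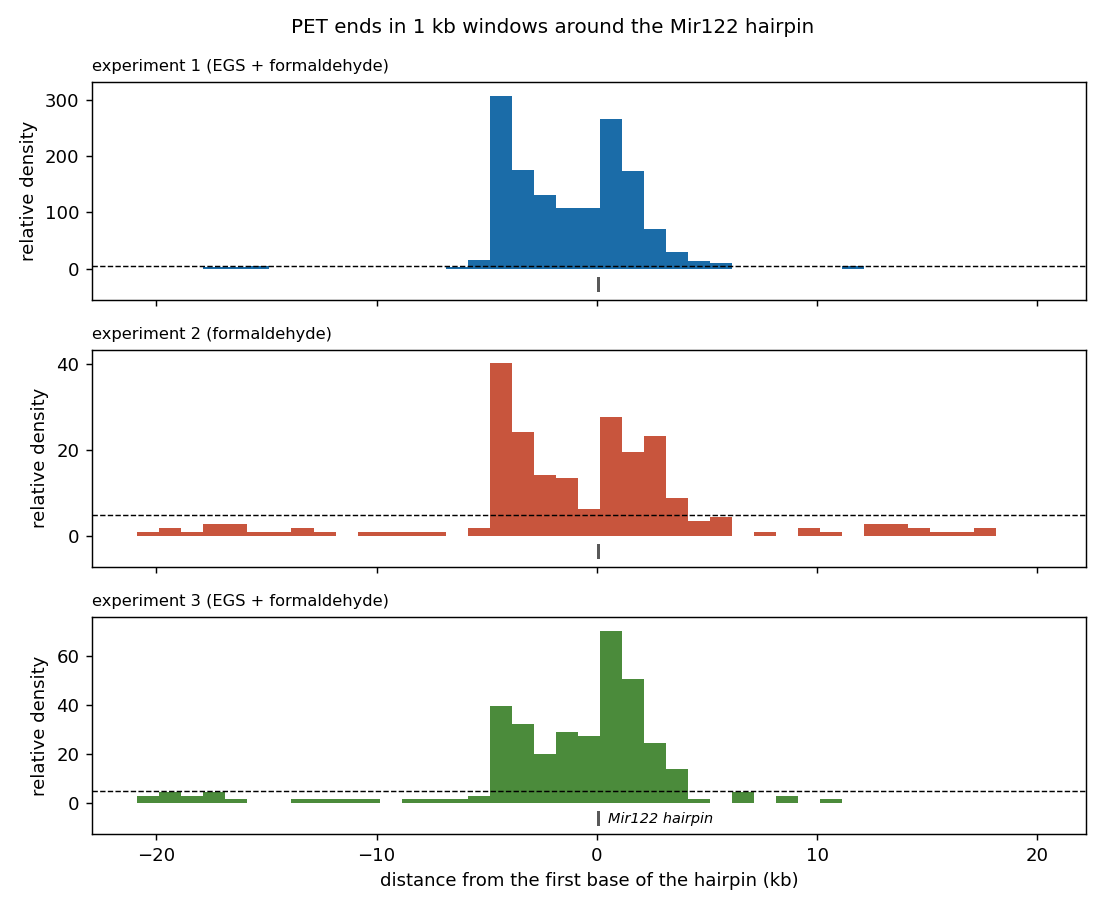
Relative density of PET ends in 1 kb windows by distance in kb from the first base of the Mir122 hairpin, in 3 panels with their own linear axes. The dashed line is 5 times the mean. A block of 9 windows with maxima of 113 and 98 ends in experiment 1 lies on either side of the hairpin, with signal near the mean beyond 6 kb.

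By zones, the density 6 to 3 kb before the hairpin was 162.7, 20.2 and 25.1 in experiments 1, 2 and 3. It was 105.7, 12.2 and 22.0 in the 3 kb before the hairpin and 177.7, 23.3 and 51.1 from the hairpin to 3 kb after it. From 3 to 6 kb after it, the density had dropped to 19.9, 5.96 and 5.63. The windows next to the block were still above the mean in experiment 1, at 16.3 before it and 13.6 after it. Beyond 6 kb the signal was near the mean. From 20 to 6 kb before the hairpin it was 0.968 (0.238 to 2.61), 1.15 (0.681 to 1.82) and 1.64 (0.881 to 2.80).

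The nearest other genes were far less dense than the members. Frmd8, which encodes a FERM domain protein and lies upstream of Neat1, was at 3.33, 1.31 and 2.67. Alpk2, a kinase gene whose span begins after Mir122, was at 0.915, 1.14 and 1.27.

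Most member PETs joined different chromosomes, as in the whole table. PETs with ends within 8 kb of each other, a class meant to hold single fragments closed on themselves, made up 30.9%, 20.2% and 17.5% of the Neat1 PETs in experiments 1, 2 and 3. For Mir122 they were 32.2%, 16.5% and 26.7%, and for Malat1 27.1%, 14.5% and 11.7%. The shares over all PETs were 22.5%, 6.23% and 14.8%. A PET between chromosomes counts at 2 loci and a PET within 8 kb at 1, so the members' shares and these are not like for like. Densities relative to the mean of the same class of PETs can be compared. With PETs within 8 kb alone, Neat1 was at 239.7 (211.3 to 270.9), 75.65 (58.75 to 95.91) and 44.76 (33.79 to 58.16). Without those PETs it was at 78.1 (71.85 to 84.76), 9.946 (8.793 to 11.21) and 18.44 (16.28 to 20.81). These intervals did not overlap in any experiment. For Malat1 the densities with PETs within 8 kb alone were 64.19 (43.91 to 90.62), 23.93 (11.47 to 44.01) and 12.14 (4.882 to 25.02). Without those PETs they were 25.12 (20.1 to 31.03), 4.692 (3.572 to 6.052) and 7.963 (5.965 to 10.42), and the intervals overlapped only in experiment 3. For Mir122 they were 320.3, 70.75 and 106.7 with those PETs alone and 98.82, 13.36 and 27.37 without them. The Mir122 intervals did not overlap in any experiment.

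Nearly all PETs with both ends inside the loci were short and fell in the class within 8 kb, so they are not counted as contacts. In the region from 20 kb downstream of Malat1 to 20 kb upstream of Neat1, 455 PETs had both ends inside. Of these, 371 spanned at most 500 bp, 454 less than 4 kb, and 1 more than 8 kb. Around Mir122 with its flanks, 190 PETs had both ends inside, 164 of them at most 500 bp apart, and the longest spanned 5626 bp. The maxima on either side of the Mir122 hairpin lie over 4 kb apart, and this was the only PET of the locus to span that much.

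Neat1 and Malat1 were joined by 1 PET in the 3 experiments together. It came from experiment 3 and had its ends at chr19:5812374 and chr19:5825088, 12714 bp apart. One end lay 9702 bp upstream of the Malat1 start, in the gap between the genes, and the other 380 bp inside the 3′ end of Neat1. With gene spans and 2.5 kb either side, 0 PETs joined the genes in any experiment, and without experiment 3 there was none on either definition. At least 1 PET over 8 kb joined 4.4% of 7857 neighbouring gene pairs with a gap of 10 to 40 kb, counted with flanks. It joined 8 of the 20 densest pairs in regions at most 1.5 times as long (40%), each by 1 or 2 PETs. Of all 6022 pairs in regions of that length 4.1% were joined. Of the 12 pairs of any length with at least as many ends, 1 was joined (8.33%), and their regions had a median length of 1242 kb. So 1 PET at the Neat1 and Malat1 region, with 2380 ends, is not set apart from other dense pairs.

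Contacts of 8 kb to 1 Mb on the same chromosome were few. Malat1 had 0, Neat1 had 3 and Mir122 had 2. In experiment 1, Neat1 was joined to a point 31518 bp away and 133 bp inside the start of Frmd8. In experiment 3 it was joined to the gap beside Malat1, as above, and to Snx15, a sorting nexin gene 301423 bp away. The 2 contacts of Mir122, both in experiment 3, reached points 23988 bp away, nearest to the ubiquitin ligase gene Nedd4l, and 757233 bp away, nearest to the cargo receptor gene Lman1. Without experiment 3, Neat1 kept 1 contact and Mir122 none. No partner was met more than once. At least 1 such contact was found for 13.7% of all genes, and for 40.4%, 62.1% and 48.9% of genes with numbers of ends like those of Malat1, Neat1 and Mir122. Those genes are mostly longer than the members, with median lengths of 101.8, 758.7 and 181.3 kb, so they are not a close match.

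Between chromosomes, no PET joined Mir122 to Neat1 or to Malat1. There was 1 PET between Malat1 and Alb, the albumin gene, and 1 between Neat1 and Ttr, which encodes transthyretin. A single PET also joined Neat1 to Hnf4a, a hepatocyte transcription factor gene. Of the partner ends of Neat1 on other chromosomes, 6.57% (4.67 to 8.95), 5.24% (2.90 to 8.64) and 1.57% (0.431 to 3.98) fell over genes at 2 or more in every experiment, with 2.5 kb either side, for experiments 1, 2 and 3. The share for all such ends was 4.91%, 1.44% and 2.54%, so the interval of Neat1 lay above it in experiment 2 and included it in the others. For Mir122 the shares were 8.21% (4.17 to 14.2), 4.29% (0.893 to 12.0) and 8.22% (3.08 to 17.0), above the table's beyond the interval in experiment 3. For Malat1 they were 4.82%, 5.17% and 5.77%, from 3 or 4 ends each, with intervals that included the table's share.

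Genes like each member in density over the 3 experiments were sought among 23557 protein-coding and lncRNA genes, by Euclidean distance of log2 relative density. For Malat1 the nearest were Irf2bp2, a transcriptional corepressor gene (33.7, 5.85 and 8.76, distance 0.03), and Dusp6, a MAP kinase phosphatase gene (0.22). Among those for Neat1 were Errfi1, a feedback inhibitor of EGF receptors (99.4, 11.2 and 19.1, distance 0.45), and the lncRNA gene Gm41668 (0.60). Among those for Mir122 were Errfi1 (1.33) and Cebpa, a hepatocyte transcription factor gene (1.42), both lower than Mir122 in every experiment. The points of each comparison are 3 pools.

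Genes whose products act with these RNAs were taken from lists. Of 14 paraspeckle protein genes, only Tardbp was at 2 or more in every experiment (8.81, 2.22 and 2.03), where 4.59% of all protein-coding genes were. The list's medians of 2.33, 1.203 and 2.00 were above those of protein-coding genes, at 1.16, 1.13 and 1.35. Sfpq and Nono, whose proteins bind Neat1 to build paraspeckles, were at 3.45, 1.69 and 2.08 and at 1.92, 0.558 and 1.28. Of 12 nuclear speckle and Malat1-associated genes 4 passed, all for SR splicing factors. Srsf2 was highest (14.2, 5.90 and 7.17), followed by Srsf5, Srsf6 and Srsf7, and the medians were 5.09, 1.47 and 3.41. None of 5 genes listed for 3′ end processing passed, where 3.33% of all genes did, a share at which none of 5 is no result about the list. Their highest, Rmrp, was at 5.65, 1.86 and 6.40. In experiment 2, Srsf2 at 5.90 was level with Malat1 at 5.89, while every paraspeckle protein gene of the list was below Neat1 in all 3 experiments.

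Of 13 other lncRNA genes matched, 2 passed, against 2.7% of all lncRNA genes. They were Gas5 (13.7, 5.20 and 4.29) and Snhg12 (7.38, 2.07 and 5.64), both hosts of small nucleolar RNAs. Tug1 was at 8.12, 1.97 and 2.74. Xist, the RNA of X inactivation, was at 0.876, 0.449 and 0.771, and Firre, also on the X, was lowest at 0.738, 0.394 and 0.596. None reached the density of Malat1 in experiment 1.

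None of 8 genes that process or load Mir122 was at 2 or more in every experiment, where 4.59% of all protein-coding genes were, a share at which none of 8 is no result about the list. Their medians were 1.11, 1.15 and 1.35, and the highest was Tarbp2, which encodes a partner of Dicer, at 2.80, 1.49 and 2.56. Of 6 liver factors that bind at Mir122, Cebpa (66.0, 14.4 and 22.9), Foxa2 (27.1, 4.52 and 6.08) and Foxa1 (12.9, 3.10 and 5.32) passed, against the same 4.59%. Hnf4a was at 10.9, 1.66 and 4.12, and Nr1d1, the clock repressor REV-ERBα, at 13.1, 1.72 and 4.44. Of 6 target genes, Aldoa (8.06, 2.41 and 4.42) and Klf6 (7.02, 2.51 and 4.08) passed, against 4.59%. Slc7a1, which encodes a cationic amino acid transporter, was at 1.09, 1.46 and 1.23.

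Of 14 other liver microRNA genes 3 passed, against 7.41% of all microRNA genes. Mir22 was at 42.6, 7.02 and 12.7, Mir21a at 42.6, 6.32 and 9.04, and Mir148a at 20.7, 3.15 and 7.52. Mir122 was the densest of them all in each experiment, by 3.49 times over the next one in experiment 1, 2.41 times in experiment 2 and 3.09 times in experiment 3. Mir33, which lies within the Srebf2 gene, had 0, 5 and 7 ends. The mature sequences of the 3 that passed are shown to identify which microRNA each hairpin gives. Their seeds, bases 2 to 8, are in capitals and differ from each other (RefSeq, GRCm38.p6):
mmu-miR-21a-5p: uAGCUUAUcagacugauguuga
mmu-miR-22-3p: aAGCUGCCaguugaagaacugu
mmu-miR-148a-3p: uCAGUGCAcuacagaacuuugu
These lie at chr11:86584120-86584141 (minus strand), chr11:75463772-75463793 (plus strand) and chr6:51269829-51269850 (minus strand). PET ends measure Pol II over a hairpin's surroundings and not the amount of either mature arm.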

How the data were processed

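Each line of the deposited table is a PET, without column names. The values show its experiment and linker, where both ends map and how far apart they are, so the deposited columns hold positions and not a normalized level. Bowtie2 and the build mm10 are named per the submitters' processing notes, with no version or role. Other steps were not given in the sources used here. RefSeq genes of GRCm38.p6, the same assembly as mm10, gave spans and names. Strand came from the RefSeq promoter table for Malat1 and Frmd8, and for Neat1 and Mir122 from general knowledge.

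PETs touching the mitochondrial genome were left out. Ends were counted per experiment over each gene with 2.5 kb either side and in 1 kb windows over 20 kb flanks, and divided by the mean per kb of the autosomes and X. A gene was called at a relative density of at least 2, and a window at 5, in every experiment. Intervals of densities were Poisson intervals on an effective number of PETs, which is approximate where PETs have both ends inside a region. Intervals of ratios used the same effective numbers. Shares had exact binomial intervals. All were at 95%. PETs without molecular identifiers are not proven to be separate molecules. No test was run, since each experiment is 1 pool. The deposited table held columns of no other samples.

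The members and gene lists were chosen with earlier results of these data known. The genes named were the members, genes overlapping their flanks, the 3 genes most like each in density (at least 30 ends), the genes at or nearest contacts, and the highest, lowest and joined genes of each list, and further list genes were named after their values were seen. Some genes that this rule names are not reported here. Alternatives were near-duplicates within 2 or 10 bp collapsed, other regions, window grids, distance limits, linkers and thresholds, and each experiment left out. The comparison of 3′ shares and linker ratios with other genes was added after the values were seen. The counting was tested on simulated data. Python 3.11.15, numpy 2.4.6, pandas 2.3.3, scipy 1.17.1 and matplotlib 3.10.9 were used.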

Additional observations from a re-analysis of the deposited data

How the results depend on the processing

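Over 23 results and 199 alternative values, 119 stayed within their counting interval or within 1.5 times a count, and 80 moved. Changes of direction were not scored. The order of Neat1 and Mir122 with 2.5 kb either side was the other way round with 20 kb. All 3 genes remained at 2 or more in every experiment with near-duplicates collapsed, with any experiment left out and with a threshold of 3. No paired analysis was possible because the deposited table names no library. The cause of each move below was not tested, except that other regions and PET sets count other ends by construction.

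The density over all experiments together, 11.5 for Malat1, 33.9 for Neat1 and 46.4 for Mir122, ranged from 6.88 to 17.8, from 17.1 to 55.7 and from 25.1 to 78.7 with 1 experiment left out. It was lowest without experiment 1 and highest without experiment 2. With 20 kb either side it was 4.37, 15.8 and 11.6. Over the span alone it was 38.3 for Neat1 and 77.9 for Mir122. With PETs within 8 kb alone it was 32.8, 118.5 and 167.9, and without them 8.74, 22.7 and 30.4. Against the median protein-coding gene it was 9.36, 27.5 and 37.6, and against chromosome 19 it was 29.9 for Neat1. With linker ATGT it was 13.6, 43.9 and 58.1, and with TAAG 28.8 for Neat1 and 40.5 for Mir122.

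The densest window, at 39.7, 103.8 and 86.0, ranged from 22.6 to 61.7, from 58.2 to 162.7 and from 43.5 to 141.1 with 1 experiment left out. With 2 kb windows it was 27.8 for Malat1 and 69.4 for Mir122, and with the grid shifted by 500 bp it was 124.8 for Neat1. The share of PETs within 8 kb, at 19.8%, 25.6% and 27.4%, ranged from 13.2 to 22.5%, from 18.9 to 27.8% and from 22.1 to 30.4%.

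The contacts of Neat1 ranged from 1 to 3 and those of Mir122 from 0 to 2 with 1 experiment left out, and Neat1 had 6 with a limit of 2 Mb. The PETs joining Neat1 and Malat1 ranged from 0 to 1, and there were 0 with spans alone or with 2.5 kb either side. With 1 to 3 PETs, differences in contacts between the genes or experiments are not detectable at this depth.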
